A study of Mus musculus with 7 samples.

Results

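Efferocytosis is the engulfment of dying cells, and scavenger receptors are surface proteins that bind modified lipoproteins, cell debris and matrix fragments for uptake. The genes described here are 10 members listed by name: the receptor tyrosine kinases Mertk and Axl, the ligands Gas6 (of both) and Pros1 (of Mertk), the lipid receptor Timd4, and the scavenger receptors Stab1, Stab2, Msr1, Cd36 and Marco. All 10 were found among the 23930 genes of the deposited table, and the list was drawn up by function, with no threshold on their values. They were measured in bulk RNA from sorted Pax7-GFP cells: 3 libraries came from mice kept in normocapnia (NC1 to NC3) and 4 from mice kept in hypercapnia (HC1 to HC4). All groups shared the inducible Pax7-GFP genotype, tamoxifen induction at 12 weeks of age and collection at 16 weeks, after 4 weeks in either environment. The labels name C57/B6 littermates in the growth protocol, but in the genotype field only NC1 carries C57BL/6 and the strain number climbs from library to library. Per the study's methods, the controls breathed room air, the hypercapnia chamber was enriched in CO2, mice of both sexes were used, and hind limb muscles were injured with cardiotoxin before collection. The labels state neither the injury, nor the time after it, nor the sex of a library. The deposited table is named with 40 hours, whereas the methods describe freshly sorted cells collected days after injury, so the time these libraries stand for is uncertain. Cre was driven by Pax7, so GFP marks cells that expressed Pax7 during induction and remains on in their progeny. Nothing states that each library came from a separate animal, so the p-values below measure only the spread between these samples.

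A dying cell is recognized by phosphatidylserine, a membrane lipid that living cells keep on the inner leaflet. The kinases Mertk, Axl and Tyro3 do not bind it themselves. Gas6 bridges it to each of them and Pros1 (protein S) to Mertk and Tyro3, whereas Timd4 (Tim-4) binds it directly and tethers the dying cell. Cd36 takes up oxidized lipoproteins and long-chain fatty acids, Msr1 and Marco are class A scavenger receptors of macrophages, and the stabilins Stab1 and Stab2 clear matrix fragments and lipoproteins, with Stab2 typical of sinusoidal endothelium. In injured muscle, macrophages clear necrotic fibers, and efferocytosis is known to accompany their turn toward a reparative state.

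Values are in RPM, the reads of a gene scaled to a common library total, from a panel in which an amplicon stands for each gene. An amplicon's yield differs between genes, so levels were compared between libraries and not between genes. Library depth ran from 14527445 to 23388710 reads, and 3 reads, taken as the floor, equal 0.128 to 0.207 RPM. The group difference is the log2 fold change of RPM + 1, hypercapnia over normocapnia, from limma fitted on all genes. A gene was called at an unadjusted p under 0.05 with a fold change above 1.5. No gene passed an adjusted p of 0.05 in limma, where 1114 had an unadjusted p under 0.05. In edgeR 0 and in DESeq2 29 passed it, and none of these 29 was a member. The libraries were uneven in composition. The satellite cell gene Pax7 was lowest in NC3, at 4.34 RPM, and highest in NC1, at 268 RPM. The summed macrophage markers (14 genes) ran from 16299 RPM (NC1) to 50792 RPM (NC3) in normocapnia and from 23972 to 28442 RPM in hypercapnia. Lyz2 alone held 8354 RPM in NC1 and 29108 RPM in NC3. The labels call the material muscle stem cells, but macrophage transcripts were abundant in both groups. Within hypercapnia, HC1 resembled HC2 and HC3 resembled HC4. In such bulk samples, fewer cells of a type and less RNA per cell cannot be told apart.

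The data bear most on Gas6, the only member called, with Pros1 as the other ligand of Mertk and Stab1 as the member with a difference of the same size that was not called. Their promoters are shown for this reason. Each sequence is the 250 bases before the RefSeq gene start in GRCm38.p6, read 5′ to 3′ on the gene's strand. Capitals mark matches on either strand to the GC box GGGCGG (reverse complement CCGCCC) or to GAGGAA, the core bound by the macrophage factor PU.1 (reverse complement TTCCTC). The Gas6 window lies on the minus strand at chr8:13494536-13494785, that of Pros1 on the plus strand at chr16:62854057-62854306 and that of Stab1 on the minus strand at chr14:31168642-31168891.
Gas6: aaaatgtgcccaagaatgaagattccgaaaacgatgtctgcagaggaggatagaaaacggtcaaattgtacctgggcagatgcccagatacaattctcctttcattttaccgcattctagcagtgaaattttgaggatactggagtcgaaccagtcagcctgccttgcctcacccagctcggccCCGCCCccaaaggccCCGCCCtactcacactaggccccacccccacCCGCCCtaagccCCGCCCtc
Pros1: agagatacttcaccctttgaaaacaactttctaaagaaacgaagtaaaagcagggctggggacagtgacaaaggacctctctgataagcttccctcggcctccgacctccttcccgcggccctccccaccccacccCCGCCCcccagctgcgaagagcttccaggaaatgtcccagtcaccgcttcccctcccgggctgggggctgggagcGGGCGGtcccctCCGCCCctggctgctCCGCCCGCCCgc
Stab1: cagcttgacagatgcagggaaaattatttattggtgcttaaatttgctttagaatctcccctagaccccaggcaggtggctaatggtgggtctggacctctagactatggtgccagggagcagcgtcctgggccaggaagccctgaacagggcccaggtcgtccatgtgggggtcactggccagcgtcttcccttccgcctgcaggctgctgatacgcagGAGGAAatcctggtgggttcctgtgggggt
Gas6 held 4 GC boxes, ending 60, 45, 14 and 2 bases before the start, and Pros1 held 5, of which those ending 6 and 2 bases before the start overlap. Stab1 held no GC box and a single GAGGAA ending 24 bases before the start. Promoters were matched for 9 of the 10 members. Of these, 5 held a GC box (Axl, Cd36, Gas6, Mertk and Pros1), beside 32.7% of 32851 promoters of this length, and 3 held GAGGAA (Axl, Marco and Stab1), beside 23.3%. None of the 9 held the AP-1 motif TGANTCA (6.75% of all promoters), the E-box CACGTG (6.02%) or the TATA box TATAAA (12.4%). The genome build behind the deposited values is not given in the sources used here, and these matches describe letters, not binding.

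Of the 10 members, 1 was called higher in hypercapnia, where 1.43% of all genes were, and 0 were called lower, where 1.14% were. A single call sets nothing apart about the list as a whole. By sign alone, 4 were higher and 6 lower, and the median log2 fold change over the members was -0.03, beside 0.02 over all genes. At an unadjusted p under 0.05 there was 1 member, beside 4.66% of all genes. EdgeR, which tested 9 of them, and DESeq2 likewise called 1 higher and 0 lower, and 0 members passed adjustment in either. Over all genes tested, edgeR called 2.21% higher and 3.82% lower, and DESeq2 2.49% and 3.76%. Among members averaging 10 RPM or more, groups did not overlap for 1 of 7, beside 9.62% of all genes at that level.

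**Figure D1:**
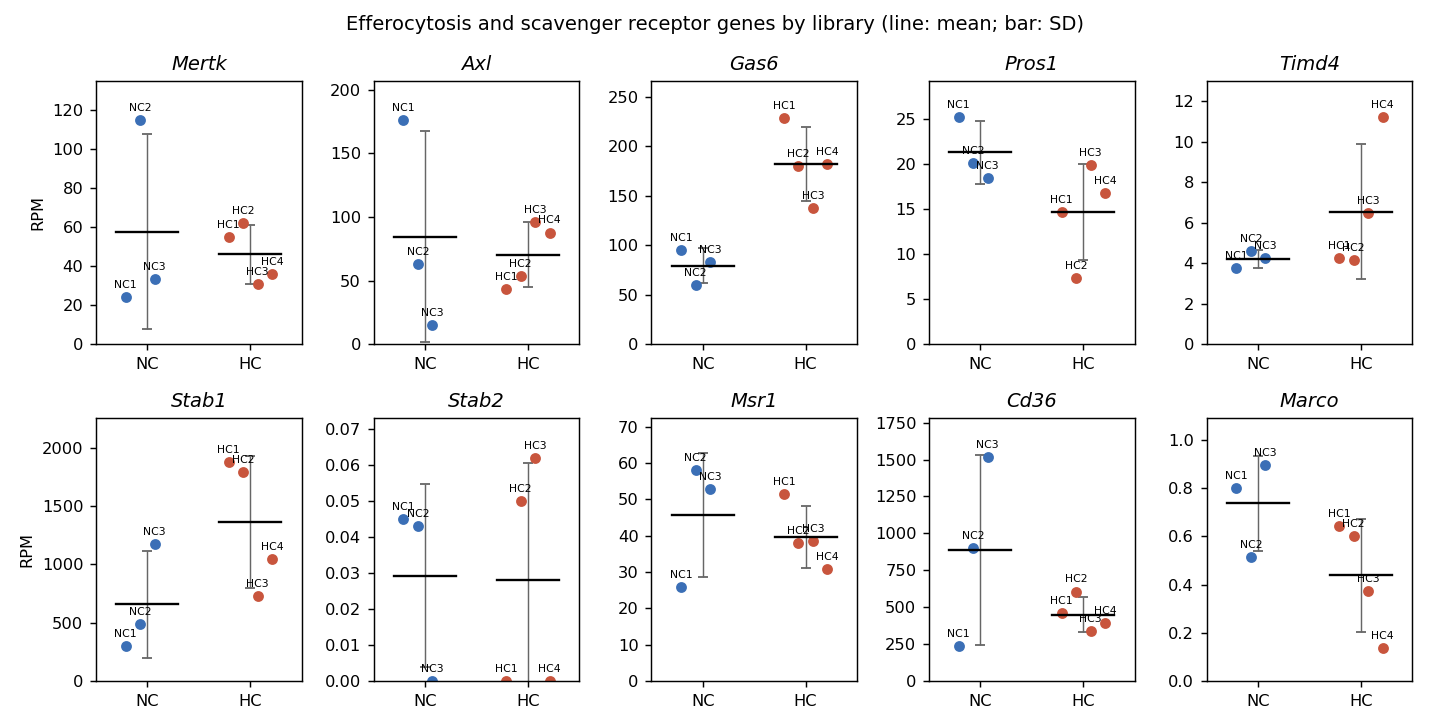
Each panel shows the RPM of a member on a linear axis from 0, with a point for each normocapnia (NC, blue) and hypercapnia (HC, red) library, a line at the group mean and a bar of SD. Only for Gas6 do the 4 hypercapnia points, from 138 to 229 RPM, all lie above the 3 normocapnia points, from 60.1 to 95.1 RPM.

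Among the ligands, Gas6 stood at 95.1, 60.1 and 82.7 RPM in NC1 to NC3 and at 229, 180, 138 and 182 RPM in HC1 to HC4. Every hypercapnia library was above every normocapnia library, and the lowest of them, HC3, was well clear of the highest control, NC1. Of the 14 macrophage markers, Adgre1 (70.5 to 149 RPM in normocapnia, 151 to 429 RPM in hypercapnia) and Aif1 (67.5 to 127 and 138 to 343 RPM) were called higher without overlap as well, and the other 12 overlapped. Their part in the Gas6 values was not tested. Mean levels were 79.3 ± 17.8 RPM (SD, n = 3) in normocapnia and 182 ± 37 RPM (SD, n = 4) in hypercapnia. The log2 fold change was 1.19 (SE 0.23, 95% interval 0.63 to 1.76), or 2.29-fold, with an adjusted p of 0.65 (limma, Benjamini-Hochberg over all genes). Its unadjusted p stood within the lowest 0.343% of all genes. Gas6 was called under all 17 alternative settings, with values from 1.01 to 1.34, and its adjusted p there ran from 0.182 to 0.961. Behind these values were 1202 to 5351 reads per library, so that counting error is small beside the spread between libraries.
Pros1, the anticoagulant protein S that also bridges dying cells to Mertk, moved the other way in its means without passing the test. It stood at 25.2, 20.1 and 18.5 RPM in normocapnia and at 14.7, 7.39, 19.9 and 16.8 RPM in hypercapnia. HC3 reached the level of the controls, so the groups overlapped, and HC2 was lowest. On the log2 scale the difference was -0.57 (SE 0.34, 95% interval -1.42 to 0.28, limma adjusted p = 0.915), and without HC2 it shrank to -0.29. Pros1 was called lower with quantile normalization (-0.73) and in no other setting.

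The receptors of these ligands differed more between libraries than between groups. Axl stood at 176, 62.7 and 14.9 RPM in NC1 to NC3 and at 43.7, 53.9, 96.4 and 87.8 RPM in HC1 to HC4. The controls alone spanned 11.8-fold and enclosed every hypercapnia value. Its log2 fold change was 0.27 (SE 0.86, 95% interval -1.88 to 2.41, limma adjusted p = 1), and the sign rested on NC3: without that library it was -0.65, and without NC1 it was 1.09. The sign also turned in edgeR (-0.16) and DESeq2 (-0.19), which scale and model whole reads. Axl was highest in NC1, HC3 and HC4, in that order, and lowest in NC3. The same 3 libraries led for Pax7, at 268, 79.5 and 59.6 RPM, and NC3 was lowest there too, at 4.34 RPM. Over the 10 satellite cell markers, summed levels were 502 to 2394 RPM in normocapnia and 694 to 1175 RPM in hypercapnia. Sdc4 alone held 441 RPM in NC3 and 723 RPM in NC1, so the sums understate the spread of the other markers. Of the 10, 0 were called, and their part in the Axl values was not tested.
Mertk, the kinase most tied to engulfment by macrophages, stood at 24.4, 115 and 33.6 RPM in normocapnia and at 55.1, 62.2, 30.6 and 36.2 RPM in hypercapnia. NC2 stood above all other libraries, NC1 below them all, and NC3 among the hypercapnia values. Hypercapnia minus normocapnia came to -0.05 on the log2 scale (SE 0.60, 95% interval -1.54 to 1.44, limma adjusted p = 1). The sign turned without NC2 (0.61), HC3 (0.12) or HC4 (0.05), none of which was called. Of the 14 macrophage markers, 3 were also highest in NC2 (Itgam, Csf1r and Cd14), while 4 were highest in NC3 (Lyz2, Tyrobp, Fcer1g and Laptm5), where Mertk was low, and their part in the Mertk values was not tested. The intervals of both kinases include changes of more than 2-fold either way, so these libraries do not resolve their direction.
Tyro3, the remaining kinase of the family, was low throughout and at 0 in NC3. It had 2.14, 0.513 and 0 RPM in normocapnia and 0.942, 0.804, 1.62 and 1.49 RPM in hypercapnia (log2 fold change 0.38, SE 0.41, limma adjusted p = 0.915), and it was called higher only without NC1 (0.83).

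Timd4, which anchors phosphatidylserine without a bridging protein and marks resident macrophages, was low in every library. It stood at 3.75, 4.62 and 4.27 RPM in normocapnia and at 4.24, 4.17, 6.5 and 11.2 RPM in hypercapnia, which rests on 62 to 166 reads per library. HC1 and HC2 lay within the controls, HC3 was slightly above them, and HC4 was highest. The groups differed by 0.44 on the log2 scale (SE 0.33, 95% interval -0.39 to 1.28, limma adjusted p = 0.915), and by 0.18 without HC4. HC4 also had the highest level of Lyve1, a gene of resident macrophages and lymphatic endothelium, at 682 RPM beside 204 to 403 RPM elsewhere. Lyve1 did not follow Timd4 in HC3, where it was at 266 RPM, and the other markers of its list peaked in other libraries. The macrophage genes Cd163 and Mrc1 peaked in NC2 and HC1. The part of any of these genes in the Timd4 values was not tested.

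**Figure D2:**
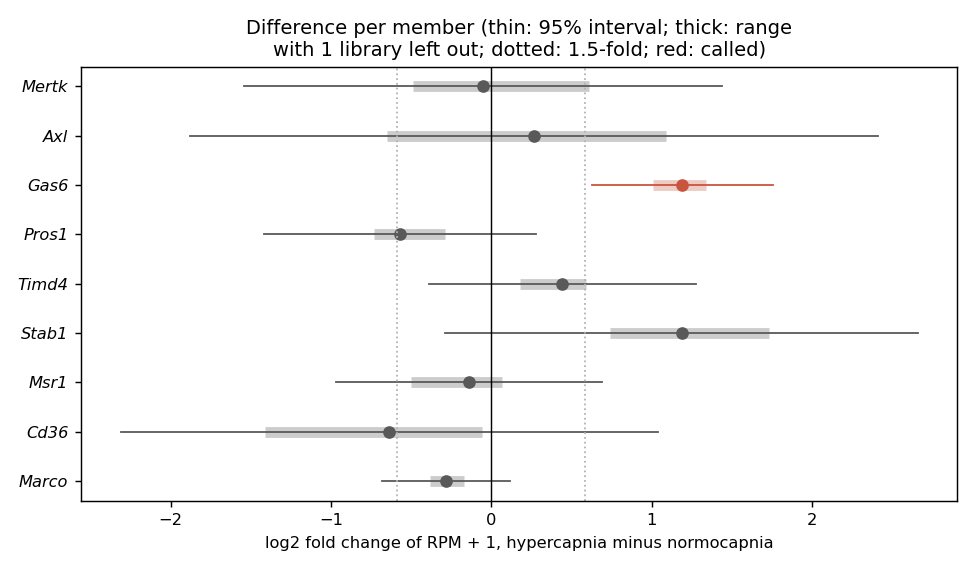
Points give the log2 fold change of RPM + 1 (hypercapnia minus normocapnia) of 9 members, with thin lines for the 95% interval from limma, thick bands for the range with 1 library left out and dotted lines at 1.5-fold. Stab2 is not drawn because its libraries held 0 or 1 read, and Gas6 (red, called) is the only member whose interval, 0.63 to 1.76, does not include 0.

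Among the scavenger receptors, Stab1 had a difference in means as large as that of Gas6 but a much wider spread, and it did not pass the test. It stood at 298, 490 and 1179 RPM in NC1 to NC3 and at 1881, 1797, 727 and 1050 RPM in HC1 to HC4. HC1 and HC2 were above all controls, whereas HC3 and HC4 were below NC3. The log2 fold change was 1.19 (SE 0.59, 95% interval -0.29 to 2.66), or 2.27-fold, with a limma adjusted p of 0.915. Stab1 was called only without NC3, where the value was 1.73, and it was 0.74 without NC1. On whole reads it was 0.77 in edgeR and 0.72 in DESeq2, not called in either. The macrophage marker Adgre1, which encodes F4/80, was also highest in HC1 and HC2, at 392 and 429 RPM. It stood at 109, 149 and 70.5 RPM in the controls and at 151 and 184 RPM in HC3 and HC4. The macrophage list as a whole did not follow Stab1: 6 of its 14 markers were highest in HC1 or HC2, and by sign 8 were higher in hypercapnia and 6 lower, including Laptm5 (-0.41), Tyrobp (-0.38) and Fcer1g (-0.31). Adgre1 and Aif1 were the 2 called higher, and their part in the Stab1 values was not tested.
Stab2 was at 0 or 1 read in each of the 7 libraries, which is under the floor of 3 reads, so no fold change is given. Markers of sinusoidal endothelium, Clec4g and Oit3, were also under 1 RPM on average. A low amplicon value does not show that a gene is silent: C1qa was at 0 to 0.452 RPM, while its partner in the same complex, C1qb, was at 158 to 1061 RPM.

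Cd36 had lower means in hypercapnia but did not pass the test. It stood at 234, 902 and 1518 RPM in normocapnia and at 462, 606, 339 and 392 RPM in hypercapnia. NC2 and NC3 were above all hypercapnia libraries and NC1 was below them all. The difference was -0.64 on the log2 scale (SE 0.67, 95% interval -2.31 to 1.04, limma adjusted p = 0.915). NC1 decided the call: without it the value was -1.41 and Cd36 was called lower, and without NC3 it was -0.06. It was -1.28 in edgeR and -1.33 in DESeq2, not called in either. The summed macrophage markers were likewise lowest in NC1 and highest in NC3, but Lyz2 made up much of that sum, at 8354 and 29108 RPM. Of the 14 markers, 4 were highest in NC3, whereas others, among them Ptprc, Adgre1, Aif1, Cd14 and C1qb, were lowest there. The part of these markers in the Cd36 values was not tested. Of the adipocyte markers, Adipoq was at 0 to 0.135 RPM.
Msr1 varied less between libraries than Stab1 or Cd36. It stood at 26, 58 and 53 RPM in normocapnia and at 51.4, 38.1, 38.5 and 30.7 RPM in hypercapnia, so that the hypercapnia libraries all lay between NC1 and NC2. Its log2 fold change was -0.14 (SE 0.33, 95% interval -0.97 to 0.69, limma adjusted p = 0.988), which turned to 0.07 without NC2 and 0.01 without NC3.
Marco was under 1 RPM in every library, at 0.803, 0.513 and 0.895 RPM in normocapnia and 0.642, 0.603, 0.375 and 0.135 RPM in hypercapnia. These values rest on 18, 12 and 13 reads and on 15, 12, 6 and 2 reads, and that of HC4 is below the floor. The fitted difference was -0.28 (SE 0.16, 95% interval -0.68 to 0.12, limma adjusted p = 0.915), or -0.17 without HC4, and the added 1 RPM makes it smaller than the change in RPM itself.

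**Figure D3:**
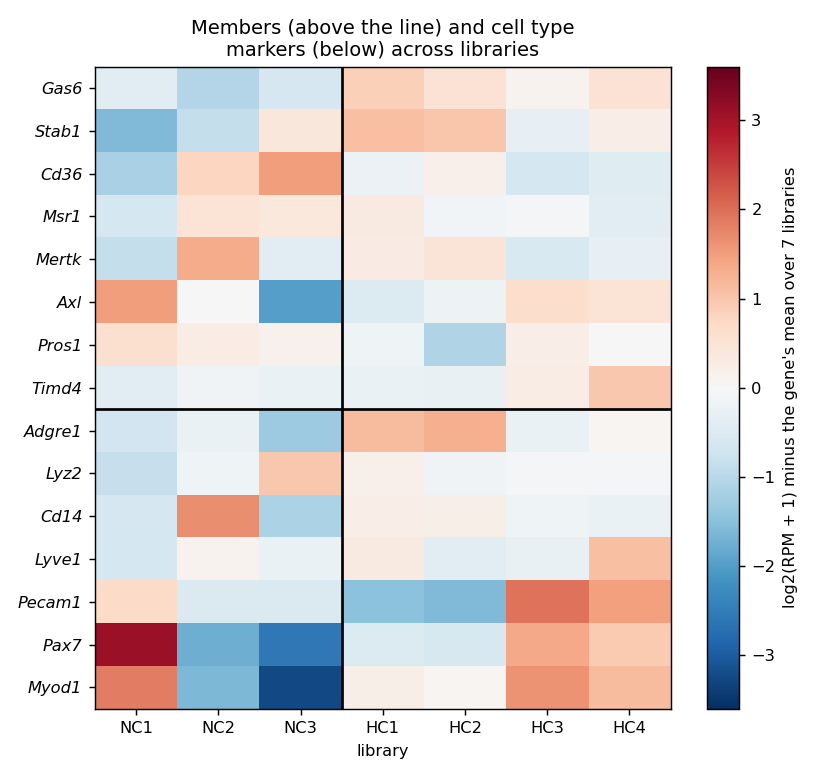
Colors give log2(RPM + 1) minus the gene's own mean over the 7 libraries, for 8 members above the horizontal line and 7 cell type markers below it, with normocapnia libraries to the left of the vertical line. Gas6 is above its mean in each hypercapnia library, though only slightly in HC3, where the color is close to white. Axl is reddest in NC1, Mertk in NC2 and Cd36 in NC3. The markers were picked with their values in view, and the macrophage genes Adgre1, Lyz2 and Cd14 peak in different libraries (HC2, NC3 and NC2).

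The members did not share a single profile over the libraries. Likeness was measured as the root mean square difference between log2(RPM + 1) profiles, each centered on its own mean over the 7 libraries, against 8228 other genes averaging 10 RPM or more. The genes most like Gas6 were Nqo2 (0.14), a quinone reductase, and Tfrc (0.19), the transferrin receptor. Nqo2 stood at 32.7, 27 and 37.4 RPM in normocapnia and at 87.6, 79.7, 51.7 and 69.4 RPM in hypercapnia, with no overlap. Most like Stab1 were Cbr2 (0.25) and Trim30a (0.34), and Gas6 was the nearest other member, at rank 180. Most like Axl were Gtf2ird1 (0.09) and Zcchc14 (0.13), both highest in NC1 and lowest in NC3. The nearest genes were Lpxn and Rasgef1b for Mertk (0.19 each), Dnajb4 (0.20) and Msl2 (0.21) for Pros1, Gm2a (0.09) and Fbxo33 (0.13) for Msr1, and Dennd4c (0.17) and Rassf2 (0.18) for Cd36. In no case was another member among the 2 nearest genes, and the nearest member to Axl ranked only 4568. This is a description over 7 libraries that differ in depth and cell mixture, and the genes were picked from all 8228.

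Other genes of the same processes were grouped into 5 lists with 67 genes in the table. Of these 67, 3 were called higher and 1 lower, beside 1.43% and 1.14% of all genes, and the median log2 fold change was 0.16, beside 0.02 over all genes and 0.16 over the 12504 genes averaging 1 RPM or more. With median-of-ratios scaling the median over those 12504 genes was 0.04 and with quantile normalization -0.01, so increases in RPM are to be read against this shift.
Of 8 nuclear receptors and transcription factors of efferocytosis, 2 were called higher and 0 lower. EdgeR and DESeq2 called the same 2 higher and each called 1 lower. Nr1h3, the liver X receptor that is switched on by sterols from engulfed cells, stood at 8.56, 6.41 and 9.15 RPM in normocapnia and at 21.2, 26.5, 14.2 and 19.5 RPM in hypercapnia. The groups were apart, with a log2 fold change of 1.22 (SE 0.23, limma adjusted p = 0.65). Pparg, a fatty acid sensor that acts with it, stood at 17.3, 16.5 and 12.4 RPM and at 25.9, 31.4, 31.4 and 25.3 RPM, again with the groups apart (log2 fold change 0.85, SE 0.15, limma adjusted p = 0.65). Pparg was called under all 17 alternatives and Nr1h3 under 16, the exception being quantile normalization (0.99). Their partner Rxra did not pass the test, at 145 to 391 RPM in normocapnia and 170 to 218 RPM in hypercapnia, nor did Maf (log2 fold change 0.69, limma adjusted p = 0.915).
Of 13 signals on the dying or living cell, 1 was called higher and 0 lower. EdgeR and DESeq2 called another gene higher, the nucleotide receptor P2ry12 (1.27 and 1.22, beside 1.16 in limma, not called), and DESeq2 called 1 lower. Calr (calreticulin), an eat-me signal when exposed on the surface, stood at 813, 850 and 1331 RPM and at 1652, 1335, 1503 and 1434 RPM, with HC2 barely above NC3. Its log2 fold change was 0.60 (SE 0.19, limma adjusted p = 0.915), and the call held in only 6 of 17 alternatives, with 0.36 in edgeR and 0.31 in DESeq2, where it was not called. Sirpa, the receptor of the don't-eat-me protein Cd47, did not pass the test (0.78, SE 0.57, limma adjusted p = 0.915).
Of 15 genes of the engulfment machinery in the table, 0 were called higher and 1 lower, and 3 had an unadjusted p under 0.05, beside 4.66% of all genes. The other 2 were Vav1 (0.52, SE 0.20, limma adjusted p = 0.915) and Vav3 (0.44, SE 0.11, limma adjusted p = 0.827), whose groups did not overlap (as in 9.62% of genes at 10 RPM or more) but whose differences lay under the fold threshold. DESeq2 also called Elmo1, a partner of Rac activation, lower (-1.60, beside -0.82 in limma, not called). Crkl, an adaptor that links receptors to the actin cytoskeleton, stood at 33.6, 20.9 and 31.5 RPM and at 16.9, 16.8, 20.5 and 18.4 RPM (log2 fold change -0.61, SE 0.18, limma adjusted p = 0.909). Its call held in 11 of 17 alternatives and was lost without NC1, NC3, HC1 or HC2, where values ran from -0.58 to -0.48, and also at a pseudocount of 5 RPM (-0.52) or after the 1 RPM filter. Abca1, which exports cholesterol after engulfment and is switched on by Nr1h3, did not pass the test, at 162, 322 and 205 RPM and at 227, 242, 136 and 123 RPM (-0.34, SE 0.36, limma adjusted p = 0.915). Trio, an activator of Rac, did not either (-0.08, limma adjusted p = 0.987).
Of 17 other phosphatidylserine receptors and bridging proteins, 0 were called in limma, edgeR or DESeq2, and 0 had a limma p under 0.05. Mfge8, which bridges dying cells to integrins, stood at 84.7, 42.5 and 13.1 RPM and at 41.3, 51.8, 113 and 107 RPM (log2 fold change 0.95, SE 0.73, limma adjusted p = 0.915), highest in HC3, HC4 and NC1. Thbs1 (0.42, limma adjusted p = 0.915) and Lrp1 (0.16, limma adjusted p = 1) overlapped between groups and were highest in NC2, as Mertk was.
Of 14 other scavenger receptors in the table, 0 were called in limma or edgeR and 0 had a limma p under 0.05, and 1, Cd5l, was called higher in DESeq2 (2.33, beside 1.90 in limma). Cd68, a macrophage lysosomal protein, was not called (0.59, SE 0.36, limma adjusted p = 0.915), nor was the mannose receptor Mrc1 (0.37, SE 0.37, limma adjusted p = 0.915).

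**Figure D4:**
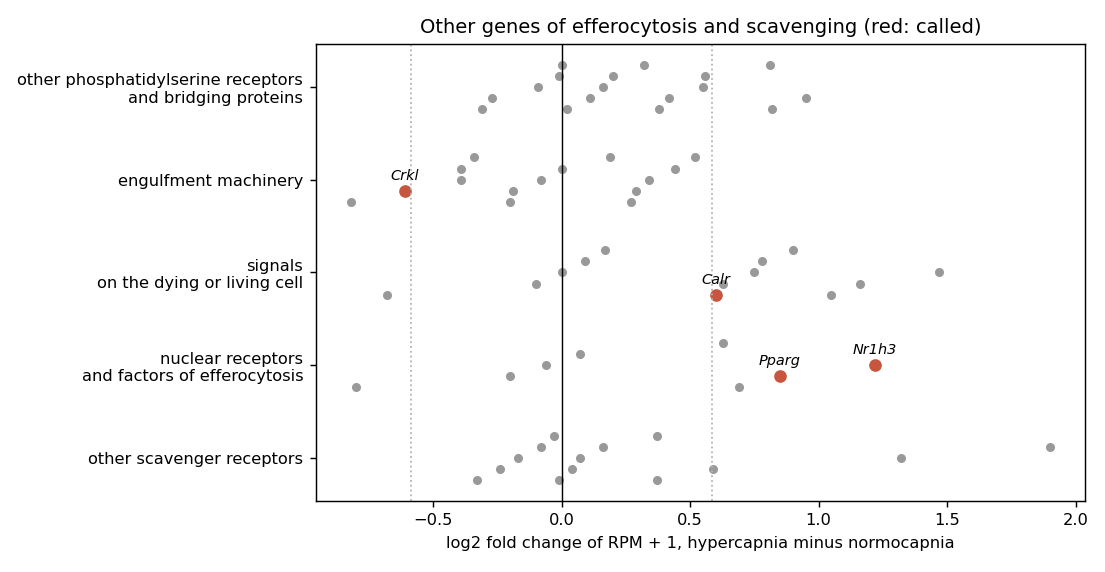
Each point is the log2 fold change of RPM + 1 (hypercapnia minus normocapnia) of a gene in 1 of the 5 lists, stacked only to keep points apart, with called genes in red and dotted lines at 1.5-fold. Nr1h3 (1.22), Pparg (0.85) and Calr (0.60) lie to the right as called genes and Crkl (-0.61) to the left, while larger differences that are gray did not pass the p threshold.

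Markers of other cells that could hold these transcripts were uneven but not called. Endothelial markers (10 genes) summed to 102 to 245 RPM in normocapnia and 57.3 to 588 RPM in hypercapnia, with Pecam1 highest in HC3 and HC4 at 317 and 229 RPM and lowest in HC1 and HC2 at 28.2 and 26.2 RPM. Stab1 was lowest in HC3 and HC4 within hypercapnia. Fibro-adipogenic markers (6 of 7 in the table, with Pdgfra at 3.37 to 13.7 RPM) summed to 1034 to 1767 RPM and 935 to 2230 RPM. Lymphatic and sinusoidal markers (5 genes) summed to 277 to 352 RPM and 248 to 698 RPM, mostly from Lyve1 (204 to 346 and 244 to 682 RPM). Myofiber markers (6 genes, with Acta1 at 4.75 to 402 RPM) summed to 239 to 4411 RPM and 345 to 2094 RPM. Dendritic markers (5 genes, with Flt3 at 0.551 to 5.58 RPM) summed to 7.02 to 128 RPM and 12.6 to 58.1 RPM, and neutrophil markers (7 genes, with S100a8 at 6.63 to 52.9 RPM and Mpo at 0) to 23.5 to 103 RPM and 12.4 to 141 RPM. Adipocyte and lymphocyte markers stayed at or under 11.3 and 2.71 RPM in sum, with Adipoq, Plin1, Lep, Cd3e, Cd3d, Ms4a1 and Nkg7 under 1 RPM on average. The same held for the neutrophil genes Ly6g, Camp and Ltf and the endothelial gene Sox17. The leukocyte gene Ptprc was at 150 to 208 RPM in normocapnia and 170 to 209 RPM in hypercapnia. In each of these lists 0 genes were called in limma, and their part in the members' values was not tested.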

How the data were processed

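Bulk RNA of 7 libraries was measured with the Ion AmpliSeq Transcriptome Mouse panel on an Ion S5 instrument. The authors deposited RPM values, 1 column per library, and the submitters' processing notes name the Transcriptome Analysis Console. Neither the aligner nor the build was named in the sources used here. Groups came from the sample titles. Whole reads were recovered where RPM times a library total was within 0.05 of a whole number, which held for 100% of values and in 3 of 3 simulated libraries. All 23930 genes entered a limma fit (version 3.58.1 under R 4.3.3) of log2(RPM + 1) on group, unfiltered, with Benjamini-Hochberg adjustment, and the fits were tested on simulated data. Alternatives were pseudocounts of 0.1 and 5 RPM, dropping genes averaging under 1 RPM, scaling by median of ratios or quantiles, a prior variance that follows the mean, edgeR 4.0.16 and DESeq2 1.42.0 on whole reads, each library left out, and the replicate number as a block. Closest in profile were HC1 and HC2, which differed beyond counting noise (chi-square per degree of freedom 22.5). The members and lists were chosen with earlier results of these data known. Named genes are the members, called genes and the 2 genes of each list with the highest mean RPM, a choice that amplicon yield affects, Tyro3 and Mfge8, the first gene and near-absent genes of each marker list and the 2 genes nearest each member in profile. Vav1, Vav3, genes called by edgeR or DESeq2 alone, and markers beyond the first of a list were added with their values in view. Rac1, Olr1, Pi16 and Cd79a were not analysed here, and some items that the lists hold are not reported here.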

Additional observations from a re-analysis of the deposited data

How the results depend on the processing

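Gas6 kept its direction and call under all 17 alternatives, whereas single libraries of either group moved the other members. The count of members called higher ran from 1 to 2 with 1 library left out, reaching 2 without NC3 (Stab1), and the count called lower from 0 to 1, reaching 1 without NC1 (Cd36) and also with quantile normalization (Pros1). Signs turned for Mertk (-0.49 to 0.61 with 1 library left out: 0.61, 0.12 and 0.05 without NC2, HC3 and HC4, and 0.05 with the replicate block), for Axl (-0.65 to 1.09, the former without NC3; -0.16 in filtered edgeR, -0.19 unfiltered and -0.19 in DESeq2) and for Msr1 (-0.50 to 0.07, with 0.07 without NC2 and 0.01 without NC3). None of these turned values passed the threshold, and the cause was not tested. Among the list genes, 3 were called higher, with 2 to 9 when a library was left out (6 without NC1, 9 without NC2). The count called lower, 1, was 0 with a pseudocount of 5 RPM or the filter, 2 with quantile normalization, 2 in filtered and 4 in unfiltered edgeR, 4 in DESeq2 and 0 to 2 with 1 library left out. Over all genes 615 were called, 1049 in edgeR without a filter, 1304 in DESeq2 and 376 to 1990 with 1 library left out (1990 without NC1, 1205 without NC2). Of the 615, 343 were higher and 272 lower, and of the 802 called in filtered edgeR, 294 were higher and 508 lower (519 and 785 in DESeq2). The libraries share only a replicate number: deviations of same-numbered libraries correlated at -0.38, 0.51 and 0.03. With the replicate block 598 genes were called, 1 member among them (Gas6, 1.19). HC4 has no normocapnia library of its number, so it does not inform the difference under the block. The fold changes of the members there equal those without HC4. Depth limits Stab2, Marco and Tyro3.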

Other observations

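Ratios between members were looked at after their values were seen, 6 in all, and they have no test. An amplicon's yield cancels when a ratio is compared between libraries. The ratio of Gas6 to Pros1, both ligands of Mertk, was 3.78, 2.99 and 4.47 in the controls (NC1 to NC3). The hypercapnia libraries (HC1 to HC4) had 15.6, 24.4, 6.95 and 10.8, with no overlap. Gas6 alone was already without overlap, and how often ratios of other gene pairs do not overlap was not worked out. The ratio of the scavenger receptors Stab1 to Cd36 did not overlap either, at 1.27, 0.543 and 0.777 against 4.07, 2.96, 2.14 and 2.68, although each gene alone overlapped. The other 4 ratios, Gas6 to Axl, Gas6 to Mertk, Gas6 to Mfge8 and Mertk to Axl, overlapped, and Mertk to Axl ran from 0.138 (NC1) to 2.25 (NC3) within the controls alone.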
